A study of Mus musculus with 11 samples.

Results

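Adipocyte genes were followed in the tibialis anterior, a shin muscle built mainly of fast fibres, in 11 RNA libraries. The members were Adipoq, Fabp4, Plin1, Plin4, Cidec, Cfd, Lep, Retn, Pparg and Cebpa, taken by gene symbol and not by level from the deposited CPM table (read counts scaled to a common library total). All 10 were found among its 18269 genes. The muscles came from C57BL/6 mice aged 21 to 24 months in an injury model. They had received young serum (4 libraries), young serum from which extracellular vesicles (EVs) had been depleted (3 libraries, called EV-depleted serum) or saline (4 libraries). The labels give no genotype beyond the strain, and the sources used here do not give the time after injury. Whether the libraries are separate animals is not stated either, and p-values then cover only the spread between these samples, which may be technical.

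White adipocytes store triglyceride in a single large lipid droplet and secrete hormones into the blood. The nuclear receptor PPARG and the transcription factor C/EBPα, products of Pparg and Cebpa, are known to drive the other genes of the list when a precursor becomes an adipocyte. In skeletal muscle adipocytes lie between fibres and bundles, and fibro-adipogenic progenitors are their known precursors. In bulk muscle, fewer adipocytes and less RNA per adipocyte cannot be told apart.

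The 250 bases before the RefSeq start of 4 members are shown because they include both regulators, a hormone and a droplet protein of the list. They are printed 5′ to 3′ on the strand of the gene, from RefSeq on mm10 (GRCm38). Capitals mark matches on either strand to TTGCNNAA, a short form of the C/EBP motif, and to TATAAA, the TATA box. Each printed window holds a match, while those of Adipoq, Cfd, Retn and Plin4 held none, so the 4 do not stand for all members. Pparg has several starts, and the window that holds TTGCNNAA is printed.
Lep, chr6:29059971-29060220, plus strand: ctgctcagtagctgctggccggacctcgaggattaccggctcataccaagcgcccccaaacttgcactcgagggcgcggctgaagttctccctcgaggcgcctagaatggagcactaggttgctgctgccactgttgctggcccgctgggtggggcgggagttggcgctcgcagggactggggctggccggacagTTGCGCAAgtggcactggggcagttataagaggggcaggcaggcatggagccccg
Plin1, chr7:79732777-79733026, minus strand: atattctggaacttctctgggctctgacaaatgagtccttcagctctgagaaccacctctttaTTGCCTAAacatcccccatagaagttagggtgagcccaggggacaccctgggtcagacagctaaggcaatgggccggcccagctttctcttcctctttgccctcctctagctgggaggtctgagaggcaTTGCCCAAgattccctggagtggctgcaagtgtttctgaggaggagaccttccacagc
Pparg, chr6:115421816-115422065, plus strand: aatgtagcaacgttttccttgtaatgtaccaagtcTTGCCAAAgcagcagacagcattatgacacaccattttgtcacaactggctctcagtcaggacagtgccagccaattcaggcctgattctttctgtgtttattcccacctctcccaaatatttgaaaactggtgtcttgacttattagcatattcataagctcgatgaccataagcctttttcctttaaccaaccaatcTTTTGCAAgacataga
Cebpa, chr7:35119043-35119292, plus strand: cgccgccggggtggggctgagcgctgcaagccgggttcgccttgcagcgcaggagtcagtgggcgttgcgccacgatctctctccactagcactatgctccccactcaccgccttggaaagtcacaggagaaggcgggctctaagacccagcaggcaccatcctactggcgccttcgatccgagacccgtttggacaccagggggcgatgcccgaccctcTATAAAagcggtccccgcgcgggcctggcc

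Of the members, 9 (all but Fabp4) had RefSeq windows, 12 in all because some genes have several starts. TTGCNNAA lay in 4 of these 12 windows (Plin1, Cidec, Lep and 1 of Pparg) and in 9.56% of the 32851 windows of all genes. In Lep the match TTGCGCAA lay 55 to 48 bases before the start and reads the same on both strands. TATAAA lay in 2 of the 12 windows (Cebpa and 1 of Pparg) and in 12.4% of all windows. The direct repeat that PPARG binds with its partner RXR, searched with a spacer of 1 base, lay in 0 of the 12 and in 0.0335% of all windows. These matches describe letters, not bound sites.

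One saline library, replicate 4, stood apart for every member. The 10 genes summed to 6499 CPM in that library. They summed to 254 to 517 CPM in young serum, 288 to 538 CPM in EV-depleted serum and 388 to 646 CPM in the remaining saline libraries. Saline replicate 4 was the highest of the 11 libraries for 10 of 10 members. Its gap to the next saline library, as a share of the saline range, passed Dixon's 95% critical value for 4 samples (it stood apart) for all 10. This held for 7.54% of the 13187 genes tested. Saline replicate 6 did so for 3.22% of all genes. It could not do so for any member, because replicate 4 was higher for each. Each comparison of the members with saline is therefore given with and without saline replicate 4.

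Depth, read from the steps between low CPM values, was 36.4 to 42.3 M reads, with saline replicate 4 the deepest. The 10 fast fibre genes summed to 138100 to 174500 CPM over the 11 libraries, with 142400 CPM in saline replicate 4, so fast fibre RNA was present in each. These sums do not identify which muscle was taken. All 10 members passed the filter of at least 1 CPM in at least 3 libraries. Lep reached 1 CPM in 8 libraries and the other 9 members in all 11.

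**Figure D1:**
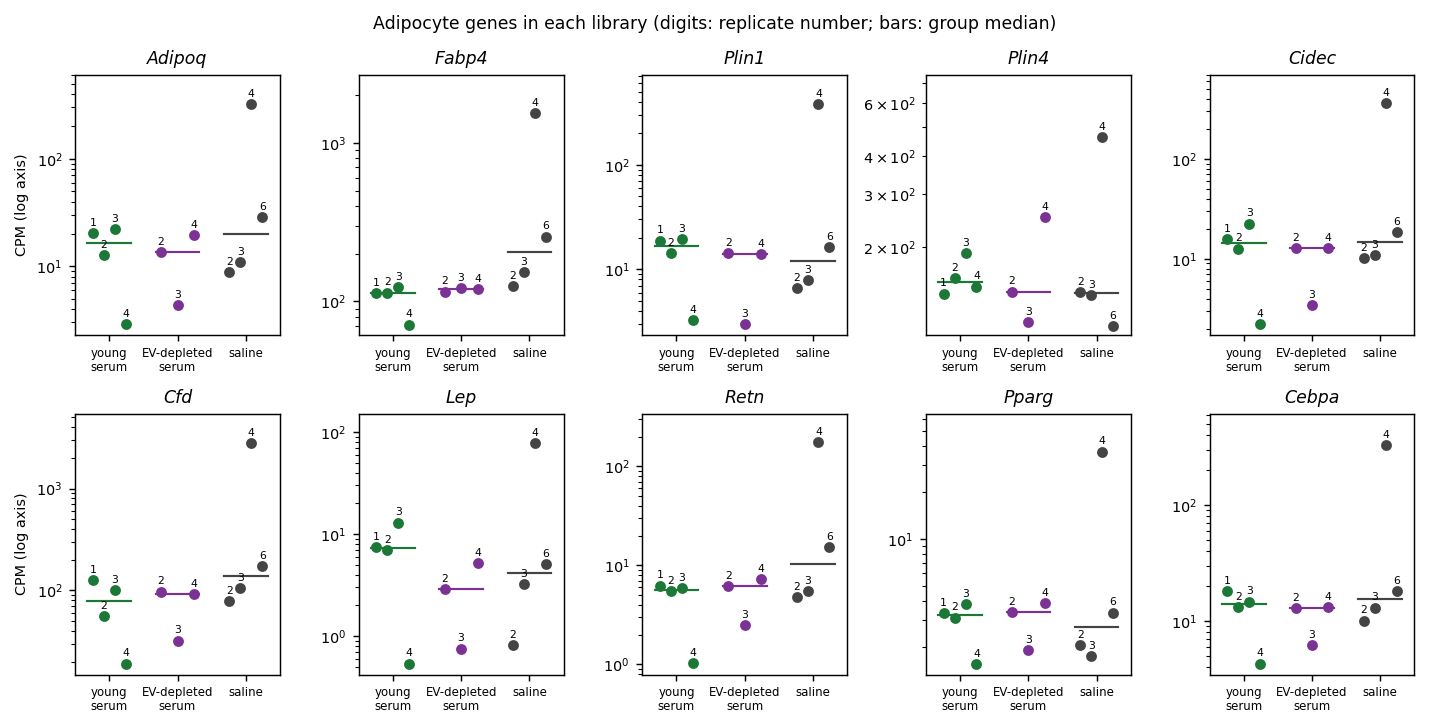
CPM of each adipocyte gene (log axis) in the young serum, EV-depleted serum and saline libraries, each point a library with its replicate number and each bar a group median. Saline replicate 4 is the highest point in every panel, and young serum replicate 4 is the lowest for 8 of 10 genes.

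Among the hormones, Adipoq (chr16:23146536-23158028 on mm10, as are all positions here) encodes adiponectin, an insulin-sensitising hormone. Adipoq had 20.4, 12.7, 22.0 and 2.89 CPM in young serum, 13.4, 4.33 and 19.4 CPM in EV-depleted serum, and 8.76, 10.8, 319.8 and 28.8 CPM in saline; values run in order of replicate, 1 to 4 for young serum, 2 to 4 for EV-depleted serum and 2, 3, 4 and 6 for saline, here and for the other members. Saline replicate 4 was highest and replicate 6 next, young serum replicate 4 and EV-depleted serum replicate 3 were lowest, and the groups overlapped. Lep (chr6:29060220-29073877) encodes leptin, the satiety hormone. Lep had 7.44, 6.98, 12.9 and 0.536 CPM in young serum, 2.87, 0.752 and 5.20 CPM in EV-depleted serum, and 0.813, 3.20, 78.4 and 5.03 CPM in saline. Below saline replicate 4, the highest 3 libraries were young serum replicates 3, 1 and 2, while young serum replicate 4 was the lowest of all. The 10 libraries other than saline replicate 4 spanned 24.1-fold for Lep, the widest span of the 10 members.

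Retn (chr8:3655770-3660110) encodes resistin, a hormone that adipocytes secrete in mice. Retn had 6.24, 5.47, 5.93 and 1.02 CPM in young serum, 6.15, 2.52 and 7.27 CPM in EV-depleted serum, and 4.75, 5.53, 175 and 15.4 CPM in saline. Cfd (chr10:79890853-79892655) encodes adipsin, the complement protease factor D, which adipocytes release. Cfd had 126, 56.4, 101 and 19.2 CPM in young serum, 97.3, 32.1 and 92.0 CPM in EV-depleted serum, and 78.1, 105, 2811 and 175 CPM in saline. For both genes saline replicate 6 came next below saline replicate 4, young serum replicate 4 was lowest, and the groups overlapped.

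Among the lipid droplet genes, Plin1 (chr7:79720218-79732903) encodes perilipin 1, the droplet coat protein that controls lipolysis in adipocytes. Plin1 had 18.9, 14.4, 19.5 and 3.24 CPM in young serum, 14.3, 2.98 and 13.99 CPM in EV-depleted serum, and 6.58, 7.89, 381 and 16.2 CPM in saline. Cidec (chr6:113424634-113435760) encodes a protein that fuses droplets into larger ones. Cidec had 15.9, 12.7, 22.6 and 2.22 CPM in young serum, 12.9, 3.45 and 12.8 CPM in EV-depleted serum, and 10.2, 10.9, 362 and 18.7 CPM in saline. Apart from replicate 4, every saline library lay within the range of young serum for both genes.

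Plin4 (chr17:56100591-56109803), a perilipin that muscle fibres also express, varied less. Plin4 had 139.8, 158, 191 and 148 CPM in young serum, 142, 113 and 251 CPM in EV-depleted serum, and 142, 138, 463 and 109 CPM in saline. Saline replicate 4 was highest and saline replicate 6 lowest, so the saline group spanned all the others. Saline replicate 4 was 3.35 times the median of the other saline libraries for Plin4, against 10.1 times for Fabp4 and 48.3 times for Plin1. Plin4 overlaps Hdgfl2 on the opposite strand, and the sources used here do not say whether the counting used strand, so reads in the overlap cannot be told apart. Hdgfl2 had 37.2 CPM in saline replicate 4 and 28.6 to 39.4 CPM elsewhere.

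Fabp4 (chr3:10204088-10208576) encodes a fatty acid binding protein of adipocytes that endothelial cells and macrophages also make. Fabp4 had 113, 114, 123 and 71.4 CPM in young serum, 115, 121 and 119.5 CPM in EV-depleted serum, and 125, 153, 1543 and 256 CPM in saline. Every library of either serum was below every saline library, the nearest pair being young serum replicate 3 and saline replicate 2. The EV-depleted serum libraries lay closest together, with a standard deviation of 3.03 CPM (n = 3).

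Of the regulators, Pparg (chr6:115360951-115490399) encodes the nuclear receptor of adipogenesis. Pparg had 3.31, 3.10, 3.78 and 1.56 CPM in young serum, 3.35, 1.92 and 3.86 CPM in EV-depleted serum, and 2.06, 1.76, 36.7 and 3.35 CPM in saline. Cebpa (chr7:35119293-35121928) encodes C/EBPα, which acts with it. Cebpa had 18.2, 13.2, 14.7 and 4.29 CPM in young serum, 12.9, 6.17 and 13.1 CPM in EV-depleted serum, and 10.1, 13.1, 328 and 18.1 CPM in saline. Both were highest in saline replicate 4 and lowest in young serum replicate 4, and the groups overlapped. Pparg overlaps Gm44079 on the opposite strand, which was not analysed here. Cebpa overlaps the antisense gene Gm45091, which had 0.568 CPM in saline replicate 4 and 0.0256 to 0.196 CPM elsewhere.

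Levels of different genes can be set side by side per kilobase of the longest protein-coding transcript. By the median over the 10 libraries other than saline replicate 4, the order was Fabp4 (134 CPM per kilobase), Cfd (103), Plin4 (24.6), Adipoq (10.1) and Cidec (7.42). The levels of Plin1 (5.03 CPM per kilobase), Retn (5.03), Cebpa (4.99), Pparg (1.51) and Lep (1.26) followed. The ranges of every pair of neighbours in this order overlapped across the 10 libraries. In saline replicate 4 Cfd was first, with 3049 CPM per kilobase, and Fabp4 had 1722. Plin4, with 80.5 CPM per kilobase there, was below Adipoq, Cidec, Retn, Plin1 and Cebpa.

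Ratios of CPM between members show which genes moved in proportion across libraries. Cidec was 0.949 times Plin1 in saline replicate 4 and 0.685 to 1.56 times Plin1 in the other 10 libraries. Adipoq was 0.838 times Plin1 in saline replicate 4 and 0.885 to 1.78 times elsewhere. Cebpa was 0.861 times Plin1 there and 0.755 to 2.07 times elsewhere. The ratios of Cidec, Adipoq and Cebpa varied by less than 3-fold over all 11 libraries, while Plin1 itself spanned from 2.98 to 381 CPM. Those of the other members varied more. Pparg was 0.096 times Plin1 in saline replicate 4 and 0.18 to 0.64 times elsewhere, and Lep 0.21 and 0.12 to 0.66 times. Retn was 0.46 times Plin1 there and 0.30 to 0.95 times elsewhere, and Cfd 7.37 and 3.92 to 13.3 times. Fabp4 was 4.04 times Plin1 in saline replicate 4 and 5.97 to 40.7 times elsewhere. Plin4 was 1.22 times Plin1 there and 6.73 to 45.5 times elsewhere. For both, the highest 2 ratios were those of young serum replicate 4 and EV-depleted serum replicate 3, the libraries with the least Plin1.

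**Figure D2:**
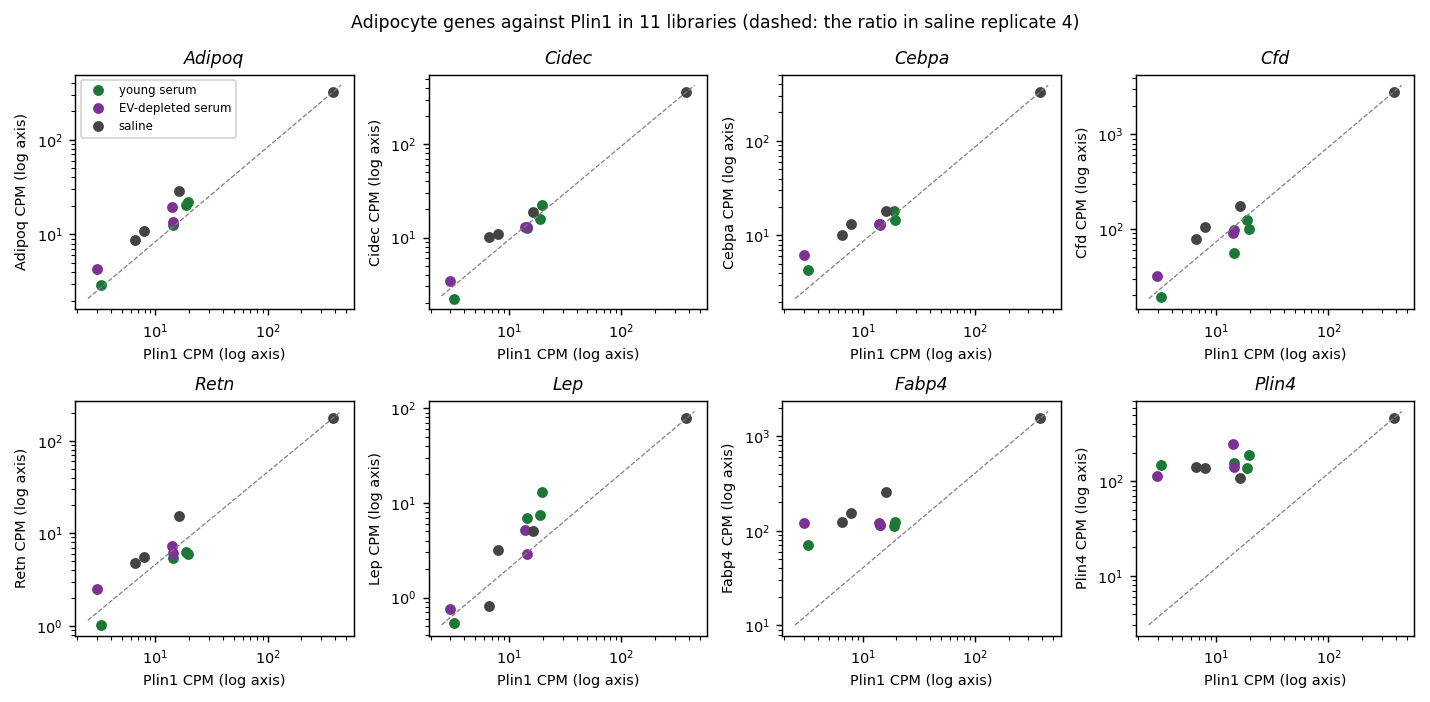
CPM of 8 adipocyte genes against CPM of Plin1 in 11 libraries (log axes), coloured by group, with a dashed line at the ratio found in saline replicate 4, the point at the upper right. Cidec and Cebpa lie on both sides of the line. All 10 other libraries lie above it for Adipoq, at 0.885 to 1.78 times Plin1 against 0.838, and farther above it for Fabp4 (5.97 to 40.7 against 4.04) and Plin4 (6.73 to 45.5 against 1.22).

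The first comparison sets young serum against saline and asks what young serum does to aged muscle. All 10 members had lower fitted values with young serum, where 52.5% of all genes did. After Benjamini-Hochberg adjustment over all genes, 0 of 10 passed the threshold of 0.05 (limma, two-sided, on log2 of CPM plus 1), and 0.0% of all genes did. The median log2 difference was -1.35 over the members and -0.022 over all genes. Without saline replicate 4 the members' median was -0.24, with 6 of 10 lower, and the median over all genes was 0.067. With limma's array weights, 3441 of all genes and 0 of 10 members passed.

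Fabp4 averaged 105 ± 23.1 CPM in young serum and 519 ± 685 CPM in saline (SD, n = 4 each), the saline mean being 178 ± 69.2 CPM without replicate 4 (SD, n = 3). Its log2 difference was -1.51 ± 0.61 (SE), with an adjusted p = 0.199 by limma (unadjusted p = 0.0298). It was the 1 member with an unadjusted p under 0.05, where 11.4% of all genes were lower and 10.5% higher at that p. It was also the 1 member whose groups did not overlap, as 6.08% of all genes did in that direction and 6.09% in the other, where no member did. Without saline replicate 4 the log2 difference was -0.71 ± 0.24, with an adjusted p = 0.168 by limma.

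Cfd had the most negative fitted value of the members, -2.03 ± 0.99 (SE) on the log2 scale, with an adjusted p = 0.247 by limma. Cfd averaged 75.7 ± 47.5 CPM in young serum and 792 ± 1347 CPM in saline (SD, n = 4 each), and its log2 difference was -0.87 ± 0.60 without saline replicate 4. The log2 difference of Retn was -1.84 ± 0.91 with all libraries and -0.75 ± 0.51 without that library. For Adipoq it was -1.35 ± 0.98 and -0.25 ± 0.65. For Cidec it was -1.44 ± 1.01 and -0.26 ± 0.62, and for Cebpa -1.36 ± 0.89 and -0.23 ± 0.41. The 95% intervals of these 5 differences had ends of opposite sign in either fit. With all libraries they ran from -4.19 to 0.13 for Cfd and from -3.83 to 0.14 for Retn.

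The fitted values of the other 4 members changed sign when saline replicate 4 was left out. For Lep the log2 difference was -0.34 ± 1.02 (SE) with all libraries and 0.78 ± 0.71 without that library, with a 95% interval of -0.78 to 2.34. The mean level of Lep was 6.96 ± 5.06 CPM with young serum (SD, n = 4) and 3.01 ± 2.11 CPM in the saline libraries without replicate 4 (SD, n = 3). For Plin1 the log2 difference was -1.02 ± 1.08 and 0.28 ± 0.61. For Pparg it was -0.67 ± 0.67 and 0.21 ± 0.26, and for Plin4 -0.17 ± 0.39 and 0.29 ± 0.24. No other single library left out turned the sign for Plin1, Pparg or Plin4 in this comparison, while Lep also turned, to 0.33, without young serum replicate 4.

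The second comparison sets EV-depleted serum against saline. It shares the saline libraries with the first, so the same library enters both. All 10 fitted values were again lower, where 50.4% of all genes were, and 0 of 10 members passed (limma), as 0.0% of all genes did. The median log2 difference was -1.45 over the members and -0.0025 over all genes. Without saline replicate 4 it was -0.37 over the members, with 8 of 10 lower, and 0.081 over all genes. No member had an unadjusted p under 0.05, where 5.59% of all genes were lower and 6.49% higher. With array weights 1794 of all genes and 0 of 10 members passed.

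Fabp4 averaged 119 ± 3.03 CPM in EV-depleted serum (SD, n = 3) and 519 ± 685 CPM in saline (SD, n = 4). Its log2 difference was -1.31 ± 0.66 (SE), with an adjusted p = 0.425 by limma, and -0.51 ± 0.26 without saline replicate 4. It was the 1 member whose groups did not overlap, as 4.03% of all genes did in that direction and 3.39% in the other, where no member did. Cfd had -1.92 ± 1.07 with all libraries and -0.76 ± 0.64 without saline replicate 4. For Cidec the log2 difference was -1.72 ± 1.10 and -0.54 ± 0.67. Plin4 and Pparg changed sign, to 0.30 ± 0.25 and 0.25 ± 0.28 without that library, and Lep moved to -0.043 ± 0.76. Plin4 also changed sign, to 0.086, without EV-depleted serum replicate 3.

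The third comparison sets young serum against EV-depleted serum, and asks what the removal of EVs does. Its group means do not use saline, though the saline libraries enter the estimate of the spread. Of the 10 members 5 were higher and 5 lower with young serum, where 51.3% of all genes were lower. Again 0 of 10 passed (limma; 0.0% of all genes), and 0 of 10 had an unadjusted p under 0.05, where 1.75% of all genes were lower and 0.478% higher. With array weights 24 of all genes and 0 of 10 members passed. The groups overlapped for all 10 members, and did not for 4.16% of all genes that were lower and 1.96% that were higher. The median log2 difference was 0.061 over the members and -0.0049 over all genes.

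Lep had the highest fitted value of that comparison, 0.82 ± 1.10 (SE) on the log2 scale, with a 95% interval of -1.59 to 3.24. The mean level of Lep was 6.96 ± 5.06 CPM with young serum (SD, n = 4) and 2.94 ± 2.23 CPM with EV-depleted serum (SD, n = 3). The other 9 members had log2 differences of -0.23 (Retn) to 0.39 (Plin1). The mean level of Adipoq was 14.5 ± 8.75 CPM with young serum (SD, n = 4) and 12.4 ± 7.57 CPM with EV-depleted serum (SD, n = 3). The 95% interval of its log2 difference ran from -2.19 to 2.46, and from -1.31 to 1.58 with saline replicate 4 out of the fit. Intervals this wide do not show that the sera act alike.

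**Figure D3:**
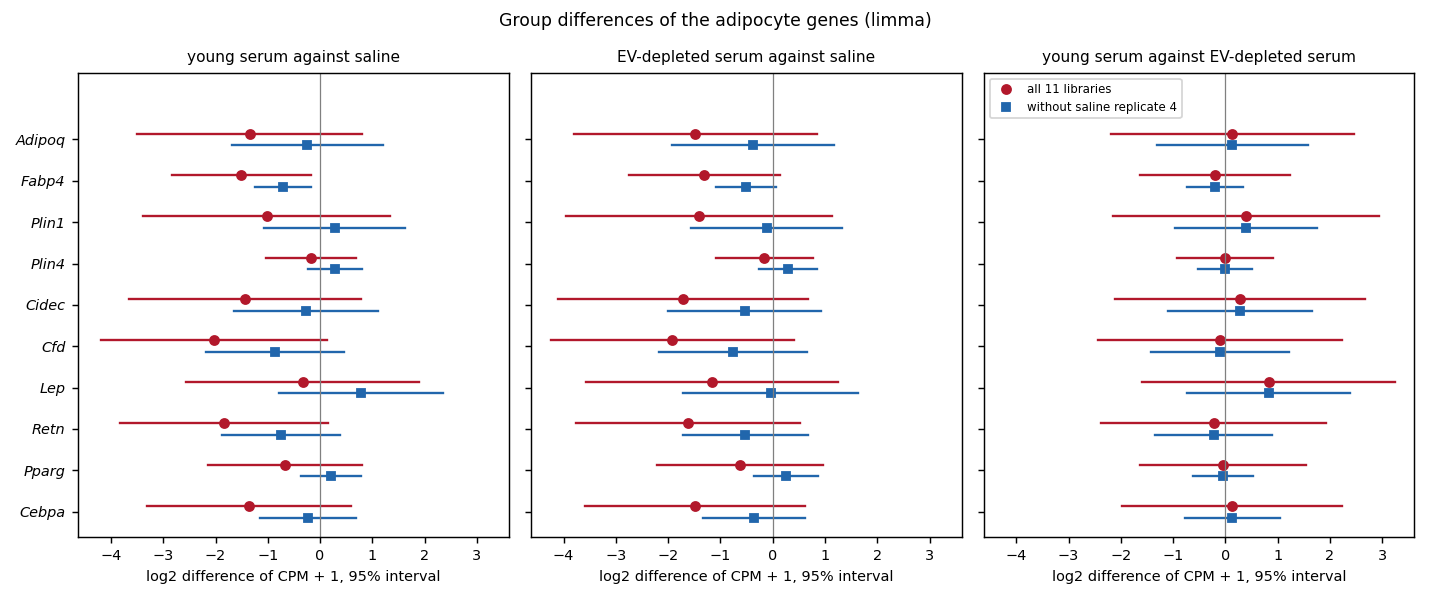
Log2 differences of CPM plus 1 with 95% intervals from limma for each adipocyte gene in the 3 comparisons, with all 11 libraries (red points) and without saline replicate 4 (blue squares). Every interval crosses 0 except those of Fabp4 for young serum against saline, at -1.51 and -0.71.

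Young serum replicate 4 was the lowest of the 11 libraries for 8 of 10 members, and EV-depleted serum replicate 3 was among the lowest 3 for 9 of 10. These libraries were also the lowest 2 for the summed macrophage genes (56.9 and 74.4 CPM) and for the summed progenitor genes (1018 and 858 CPM). The part of those cell types in the result was not tested. Without young serum replicate 4, the members' median log2 difference was 0.48 for young serum against EV-depleted serum. Without EV-depleted serum replicate 3 it was -0.26. The median was also below 0 without young serum replicate 1 (-0.091) or replicate 3 (-0.12).

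Other genes of the adipocyte programme were read in lists, of which 0 genes passed in any comparison (limma). Of 15 genes of fatty acid and triglyceride synthesis, saline replicate 4 was highest of the 11 libraries for 11 and stood apart within saline for 10. Scd1, a fatty acid desaturase gene, had 3525 CPM in saline replicate 4 and at most 199 CPM elsewhere. Pck1, which encodes an enzyme of glyceroneogenesis in fat, had 300.2 CPM there and 0.804 to 10.4 CPM elsewhere. Thrsp, a lipogenic factor, had 226 and 7.80 to 20.2 CPM, and Dgat1, which completes triglyceride, 59.0 and 9.09 to 16.7 CPM. The list's median log2 difference was -0.68 for young serum and -0.46 for EV-depleted serum, each against saline, and 0.089 and 0.14 without saline replicate 4. The medians over all genes were then 0.067 and 0.081. In the third comparison the list's median was 0.035.

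Of 12 other lipid droplet and lipolysis genes in the table, 4 stood apart in saline replicate 4. They were Lipe, which encodes hormone-sensitive lipase, with 388 CPM there and 16.4 to 42.6 CPM elsewhere, Plin2, a widespread droplet coat protein gene, with 83.7 and 22.1 to 31.8 CPM, Mgll and Bscl2. Mgll, which encodes monoglyceride lipase, had 170.1 and 31.5 to 51.1 CPM, and the seipin gene Bscl2 81.4 and 12.5 to 20.2 CPM. The list's median log2 difference was -0.50 for young serum and -0.42 for EV-depleted serum, each against saline. Without saline replicate 4 these medians were -0.19 and -0.056, and between the sera the median was -0.083.

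Among 13 other adipocyte hormones and receptors, 5 stood apart in saline replicate 4. Rbp4, the retinol carrier gene, had 39.5 CPM there and 0.843 to 3.90 CPM elsewhere, Adrb3, the adrenergic receptor gene of fat, 32.8 and 0.0779 to 1.66 CPM, and Angptl4, a lipase inhibitor gene, 47.4 and 0.441 to 5.25 CPM. The chemerin gene Rarres2 had 52.7 CPM there and 5.92 to 24.0 CPM elsewhere. Among 12 adipogenic transcription factors 4 stood apart, with Ebf1 at 28.8 CPM there and 4.39 to 11.4 CPM elsewhere, and the lipogenic regulator gene Srebf1 at 161 and 37.4 to 71.0 CPM. For young serum and EV-depleted serum against saline, the median log2 difference was -0.34 and -0.29 over the hormones and receptors. It was -0.067 and -0.12 over the transcription factors. All 4 of these medians were above 0 without saline replicate 4, at 0.0020 and 0.028 over the hormones and receptors and 0.16 and 0.029 over the transcription factors. The medians over all genes were then also above 0, at 0.067 for young serum and 0.081 for EV-depleted serum.

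Of 11 uptake genes, 3 stood apart in saline replicate 4. They were the caveolin gene Cav1 (309 CPM there and 81.6 to 117 CPM elsewhere), the glycerol channel gene Aqp7 (43.5 and 7.87 to 14.7 CPM) and Fabp5 (22.3 and 3.50 to 8.60 CPM). Their list had a median log2 difference of -0.39 for young serum and 0.045 for EV-depleted serum, each against saline, and -0.11 and 0.13 without saline replicate 4. The brown and beige fat list had 10 genes, of which Ucp1 had no values. Of the other 9, 0 stood apart in saline replicate 4. Without Ucp1, this does not show that such fat was absent. Prdm16, a regulator of brown fat, had 6.70 CPM in saline replicate 4 and 3.14 to 7.22 CPM elsewhere. Ppargc1a, a mitochondrial regulator that muscle also uses, had 19.5 and 13.3 to 55.6 CPM, and Cpt1b 194 and 217 to 309 CPM. Tbx1 was the 1 gene of the list highest in saline replicate 4, with 53.15 CPM there and 3.70 to 30.4 CPM elsewhere. Cox8b (1898 CPM) and Cox7a1 (1355 CPM) were highest in saline replicate 6. That list's median log2 difference was -0.12 for young serum and -0.013 for EV-depleted serum, each against saline, and -0.18 and -0.077 without saline replicate 4.

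Markers of other cell types were also high in saline replicate 4, and their part in the result was not tested. The 8 skin and hair genes summed to 122 CPM in saline replicate 4, 51.9 CPM in saline replicate 6 and only 1.499 to 2.54 CPM in each of the 9 further libraries, and 7 of the 8 were highest in saline replicate 4. Saline replicate 6 was the highest library after saline replicate 4 for 4 members, Adipoq, Fabp4, Cfd and Retn. The keratin gene Krt5, chosen after its values were seen, had 34.5 CPM in saline replicate 4, 10.2 CPM in saline replicate 6 and at most 0.102 CPM elsewhere. Lymphocyte genes (10) summed to 141 to 188 CPM in young serum, 125 to 148 CPM in EV-depleted serum and 254 to 629.8 CPM in saline. Slow fibre genes (10) summed to 5767 CPM in saline replicate 6, 368 CPM in saline replicate 4 and 280.4 to 2418 CPM elsewhere.

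Fabp4 is also made by macrophages and endothelium, so those lists stand beside it. The 12 macrophage genes summed to 56.9 to 163 CPM in young serum, 74.4 to 129.6 CPM in EV-depleted serum and 131 to 349 CPM in saline, where replicate 4 was highest and replicate 6 next. Of these genes 10 were highest in saline replicate 4, and 4 stood apart there. Adgre1, named for its correlation with the members' mean, which favours a high value there, had 20.8 CPM in saline replicate 4 and 1.04 to 3.72 CPM elsewhere. Lyz2 had 99.4 CPM there and 15.9 to 122 CPM elsewhere, and Mertk 3.41 and 1.35 to 3.57 CPM. Of the 12 genes 6 had an unadjusted p under 0.05 for lower values in either serum, and 0 passed after adjustment (limma). Over all genes, 11.4% had such a p for young serum and 5.59% for EV-depleted serum. Leaving out saline replicate 4, the number with such a p was 2 for young serum and 3 for EV-depleted serum (limma). Of all 13187 genes, 1156 and 474 then had such a p. The 10 endothelial genes summed to 305 to 379 CPM in young serum, 296 to 383 CPM in EV-depleted serum and 304 to 497 CPM in saline, and the groups overlapped. Without saline replicate 4, the median log2 difference for young serum against saline was -0.38 over the macrophage genes and -0.028 over the endothelial genes, beside -0.71 for Fabp4. The part of either cell type in the Fabp4 difference was not tested.

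Progenitor and preadipocyte genes (13) summed to 4208 CPM in saline replicate 4 and 858 to 1979 CPM elsewhere. The gelsolin gene Gsn made up most of that sum, with 3562 CPM there and 563 to 1324 CPM elsewhere, and was the 1 gene of the list that stood apart. Of the 13 genes, 5 were highest in saline replicate 4. Dpt, which encodes a matrix protein, had 125 CPM in saline replicate 4 and 12.8 to 47.8 CPM elsewhere. The list's median log2 difference was -0.24 for young serum and -0.36 for EV-depleted serum, each against saline, and -0.11 and -0.30 without saline replicate 4. Schwann cell genes (8) summed to 208 CPM in saline replicate 4, inside the 89.0 to 269.5 CPM of the other libraries.

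**Figure D4:**
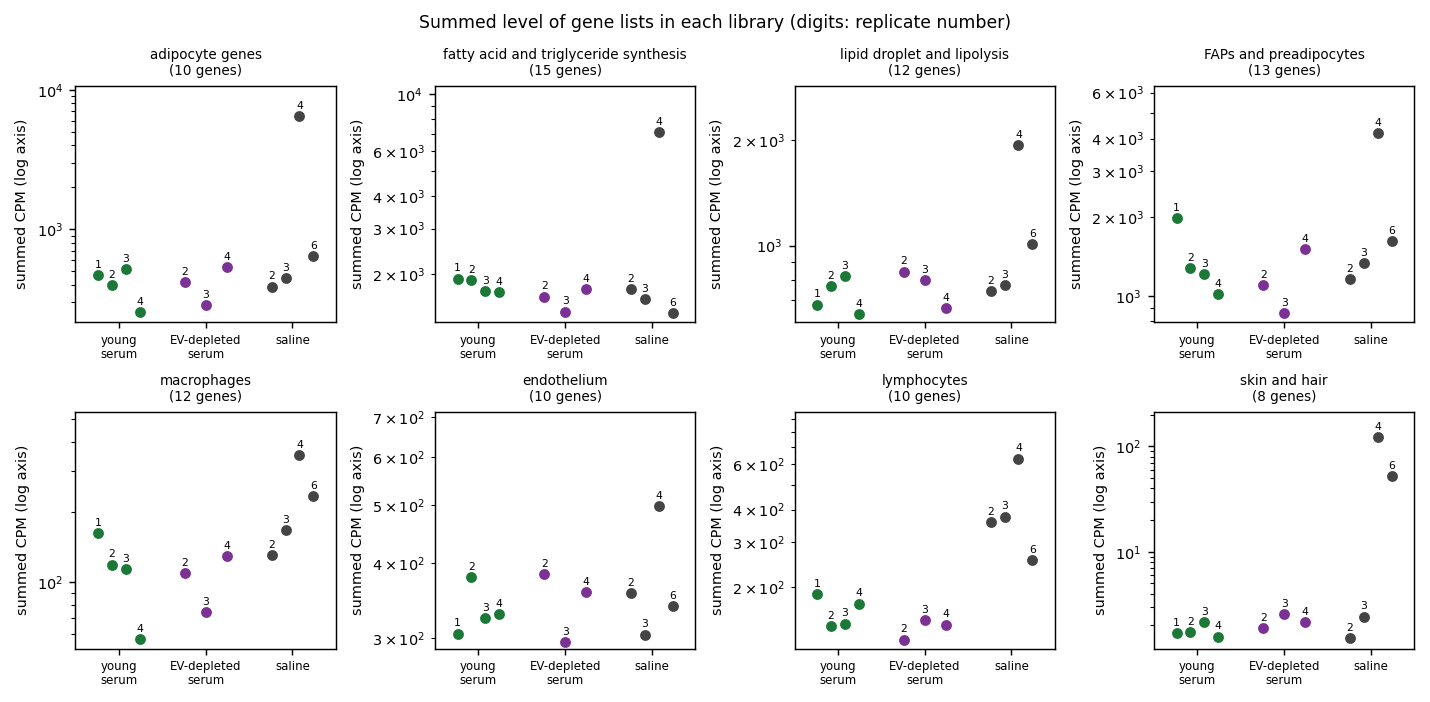
Summed CPM of 8 gene lists (log axes, each with its own range) in the young serum, EV-depleted serum and saline libraries, with replicate numbers; FAPs are fibro-adipogenic progenitors. Saline replicate 4 is highest in all 8 panels, with 6499 CPM of adipocyte genes and 7086 CPM of synthesis genes, and skin and hair genes are also high in saline replicate 6 (51.9 CPM). In the FAP panel Gsn alone makes up 3562 of the 4208 CPM in saline replicate 4, and 5 of the 13 genes are highest there.

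By Pearson's correlation of log2 values with the members' mean profile over 11 libraries, the most similar genes outside the members were Slc1a5, Naaa, Glb1l2, Smoc1, Slc7a10, Cdo1, Os9, Arhgap45, Pygl and Rbp4. They were picked as the highest of all genes with a median of at least 1 CPM, and saline replicate 4 weighs heavily in the measure, so the values are a description with no test. Over the 10 libraries without it their correlation was 0.92 (Pygl) to 0.98 (Naaa), among libraries that share treatment groups. Slc1a5, which encodes a glutamine transporter, had 441 CPM in saline replicate 4 and 10.2 to 32.9 CPM elsewhere. Cdo1, the cysteine dioxygenase gene, had 138 and 1.46 to 10.1 CPM. Slc7a10, an amino acid transporter gene, had 33.5 and 0.158 to 1.87 CPM, and Naaa, which encodes an amidase of lipid amides, 19.6 and 4.88 to 9.00 CPM. For all 10 of these genes the lowest library was young serum replicate 4 or EV-depleted serum replicate 3. Most members were also low in these libraries, so the way the genes were picked favours this.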

How the data were processed

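RNA of 11 libraries was sequenced, and the authors deposited CPM per gene (from the values, scaled to a common total over the genes in the table, with an offset of 0.0001). The authors also deposited a TPM table whose values were CPM over genomic span, and it was used only to check the CPM. Of tools and builds, FastQC, STAR, DESeq2 and mm10 stand in the submitters' processing notes, with no versions or roles. Whole reads could not be recovered, since only 75.3% to 78.8% of values came out whole within 0.1 reads, so no count model was run.

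Groups came from the labels' injection field. limma 3.58.1 (R 4.3.3, eBayes with trend) was fitted to log2(CPM + 1) of the 13187 genes that reached 1 CPM in 3 or more libraries, with the 3 groups in 1 model, two-sided, with Benjamini-Hochberg adjustment over all genes and a threshold of 0.05. Differences on this scale understate the change of low genes. The fit was tested on simulated data. The members and all gene lists were chosen with earlier results of these data known. Up to 4 genes per list were named, those with the largest absolute correlation with the members' mean over 11 libraries, plus the 10 most similar genes outside the members. Saline replicate 4 weighs heavily in that correlation, so this way of naming favours genes that were high there. Alternatives were other pseudocounts, filters, scaling, weights, a replicate block and each library left out. Positions are those of the deposited table, whose starts matched GENCODE M21 for 99.4% of 17893 symbols.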

Additional observations from a re-analysis of the deposited data

Results flagged for a closer look

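For all 10 members, saline replicate 4 lay far above the other saline libraries. Its gap to the next of the 4 libraries, as a share of the range of the group, was 0.935 for Adipoq, 0.907 for Fabp4, 0.974 for Plin1, 0.908 for Plin4 and 0.976 for Cidec. It was 0.965 for Cfd, 0.946 for Lep, 0.938 for Retn, 0.955 for Pparg and 0.975 for Cebpa. For Retn, young serum replicate 4 lay below the other young serum libraries with a gap of 0.852 of the range. Chance gives such a gap, at either end and for any of the 4 libraries, in about 1 in 20 groups of normally distributed values. The shares over all genes below are each for 1 named library at 1 end. Chance gives that less often, so they are not to be read against 1 in 20. Over all genes tested, saline replicate 4 lay that far above the other saline libraries for 7.54%, and young serum replicate 4 that far below the other young serum libraries for 0.728%.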

How the results depend on the processing

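In the settings tried, 0 of 10 members passed the threshold in any comparison. Counts over all genes depended on the setting, and the cause was not tested. For young serum against saline, 3441 genes passed with array weights and 0 to 251 with 1 library left out, the highest without saline replicate 2. For EV-depleted serum against saline, 1794 passed with array weights, 2 with saline replicates 4 and 6 left out together, and 0 to 5 with 1 library left out. Between the sera 24 passed with array weights. The replicate block gave 6 genes for EV-depleted serum against saline and 0 for young serum against saline. Same-numbered libraries correlated by -0.28 to 0.30 in their deviations, and libraries with different numbers by -0.50 to 0.54. With 3 or 4 libraries a group, these values cannot show whether the numbers pair the samples. Signs of some members turned, none past the threshold. For young serum against saline, log2 differences became 0.26 (Plin1), 0.14 (Plin4), 0.53 (Lep) and 0.25 (Pparg) with array weights, and 0.24 (Adipoq), 0.64 (Plin1), 0.17 (Plin4), 1.16 (Lep) and 0.40 (Pparg) without saline replicates 4 and 6. For EV-depleted serum against saline they became 0.26 (Plin1) and 0.36 (Pparg) with array weights, and 0.11 (Adipoq), 0.24 (Plin1), 0.18 (Plin4), 0.33 (Lep) and 0.44 (Pparg) without saline replicates 4 and 6. Between the sera they became -0.034 (Adipoq), 0.14 (Plin4), -0.033 (Cidec) and -0.050 (Cebpa) with array weights, -0.12 (Adipoq), 0.048 (Plin4) and -0.083 (Cebpa) with the replicate block, and 0.0054 (Plin4) after rescaling by median ratios. With 1 library left out, the log2 differences for young serum against saline ran over -1.61 to 0.28 (Plin1), -0.40 to 0.29 (Plin4), -1.03 to 0.78 (Lep) and -1.05 to 0.21 (Pparg). For EV-depleted serum against saline they ran over -0.49 to 0.30 (Plin4) and -1.01 to 0.25 (Pparg), and between the sera over -0.43 to 0.70 (Adipoq), -0.25 to 0.92 (Plin1), -0.26 to 0.32 (Plin4), -0.27 to 0.89 (Cidec), -0.62 to 0.43 (Cfd), -0.60 to 0.21 (Retn), -0.26 to 0.15 (Pparg) and -0.19 to 0.54 (Cebpa). The members' median kept its sign in both comparisons with saline with any 1 library left out (-1.89 to -0.24 with young serum and -1.996 to -0.37 with EV-depleted serum), and ran over -0.26 to 0.48 between the sera. With saline replicates 4 and 6 left out together the members' median turned, to 0.081 with young serum and 0.031 with EV-depleted serum. The medians over all genes were then 0.051 and 0.064. Between the sera the members' median turned with at least 1 CPM in all libraries (-0.0100), array weights (-0.042) and the replicate block (-0.091). The filter of at least 1 CPM in all libraries left out Lep.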
